A study of Mus musculus with 12 samples.

Results

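The cytosolic heat shock proteins and the cochaperone BAG3 were described through 10 genes, found by their symbols in a deposited table of 38887 mouse genes: the small heat shock genes Hspb1 and Hspb8, Bag3, the HSP70 genes Hspa1a, Hspa1b and Hspa8, their partners Dnajb1 and Hsph1, and the HSP90 genes Hsp90aa1 and Hsp90ab1. Each symbol matched 1 entry, and all 10 genes passed the filter on low values (3 or more of the 12 libraries at 1 RPKM or above), as did 18269 genes in all. RPKM, the unit of the deposited values, is the number of reads of a gene scaled by its length and by a total for the library.

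The study profiled RNA of 2 classes of retinal ganglion cell, the neurons whose axons form the optic nerve, after injury to that nerve. Fluorescent cells were picked singly from dissociated retina, 10 per animal, and 3 such pools of 10 made a sample of 30 cells. The 12 samples formed 4 groups of 3. Opn4 cells (intrinsically photosensitive ganglion cells, which express melanopsin) came from Opn4CreERT/+;R26-tdTomatof/f mice, in which Cre driven from the melanopsin gene turns on a red reporter, and were taken after optic nerve crush or after sham surgery. HB9 cells (ON-OFF direction-selective ganglion cells) came from HB9:GFP mice, which carry a green reporter transgene and no Cre, again after crush or sham surgery. All mice had 0.124 mg of tamoxifen per g of body weight on 5 days from postnatal day 21, surgery at postnatal day 42, and tissue collection 3 days later. Strain, Cre and reporter therefore cannot be told apart from cell class, whereas crush and sham were compared within a line. The labels do not say whether samples shared animals, so p-values measure the spread between these pools of 3 animals each.

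Heat shock proteins are molecular chaperones, which bind unfolded or damaged proteins, keep them from aggregating and help them refold. Small heat shock proteins hold unfolded clients without using ATP, HSP70 proteins cycle between binding and release with the help of J-domain proteins and nucleotide exchange factors, and HSP90 proteins finish the folding of kinases and steroid receptors. BAG3 links HSP70 and the small heat shock proteins to selective autophagy, and heat shock factor 1 (HSF1) drives many of these genes through heat shock elements in their promoters.

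The library totals used for the scaling lay between 15104446 and 28195798 reads, and the fewest reads recovered for any of the 10 genes in a library was 68, for Hspb1. Melanopsin-class markers (Opn4 and Eomes) summed to between 1552 and 2181 RPKM in Opn4 libraries and to at most 32.2 RPKM in HB9 libraries. The HB9 markers Mnx1 and Cartpt summed to at most 177 RPKM in Opn4 libraries and to between 1367 and 6398 RPKM in HB9 libraries. Rod markers were present in every library, with sums of 961 to 2707 RPKM in Opn4 crush, 585 to 1588 in Opn4 sham, 445 to 794 in HB9 crush and 184 to 751 in HB9 sham libraries. Opn4 crush replicate 1 and Opn4 sham replicate 1 stood apart from their groups on the third principal component of all tested genes, at -61.9 and 83.8. In these pools, fewer cells of a type and less RNA per cell cannot be told apart.

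Levels of several of the genes are uncertain because near-identical copies exist in the genome. Aligned transcripts showed Hspa1a and Hspa1b to be 99.2% identical over 2201 bases, with 12 mismatches. Hspb1 matched the pseudogene Hsp25-ps1 at 99.8% over 441 bases and, on the opposite strand, Gm9817 at 99.8% over 477 bases. Hsp90aa1 matched the pseudogene Gm12346 at 99.5% over 2255 bases, and Hspa8 matched Gm8355 at 98.7% over 1941 bases and, on the opposite strand, Gm26825 at 99.6% over 1940 bases. Reads assigned to the copies outside the gene came to 122% to 159% of those of Hspb1, 188% to 236% of those of Hspa8 (140% to 178% for Gm26825 alone) and 168% to 193% of those of Hsp90aa1, and how such reads were counted is not given in the sources used here. No copy of at least 95% identity over at least 200 bases was found for Hspb8, Bag3, Hsp90ab1, Hsph1 or Dnajb1.

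The 10 genes together made up 3060 to 3269 RPKM in Opn4 crush libraries and 2445 to 2759 RPKM in Opn4 sham libraries. In HB9 cells their sum was 3460 to 4062 RPKM after crush and 2767 to 3028 RPKM after sham surgery. In both classes every crush library lay above every sham library in this sum, which was not tested. Among all tested single genes, 7.38% did so in Opn4 cells and 19% in HB9 cells. Hspa8, Hsp90aa1 and Hsp90ab1 supplied 88.9% to 94.1% of the sum in each library. Of these 3 genes, only Hsp90aa1 passed the test for crush, and only in HB9 cells. Single values of these 3 genes ran from 270 to 1606 RPKM, and those of the remaining 7 genes from 3.27 to 151 RPKM.

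**Figure D1:**
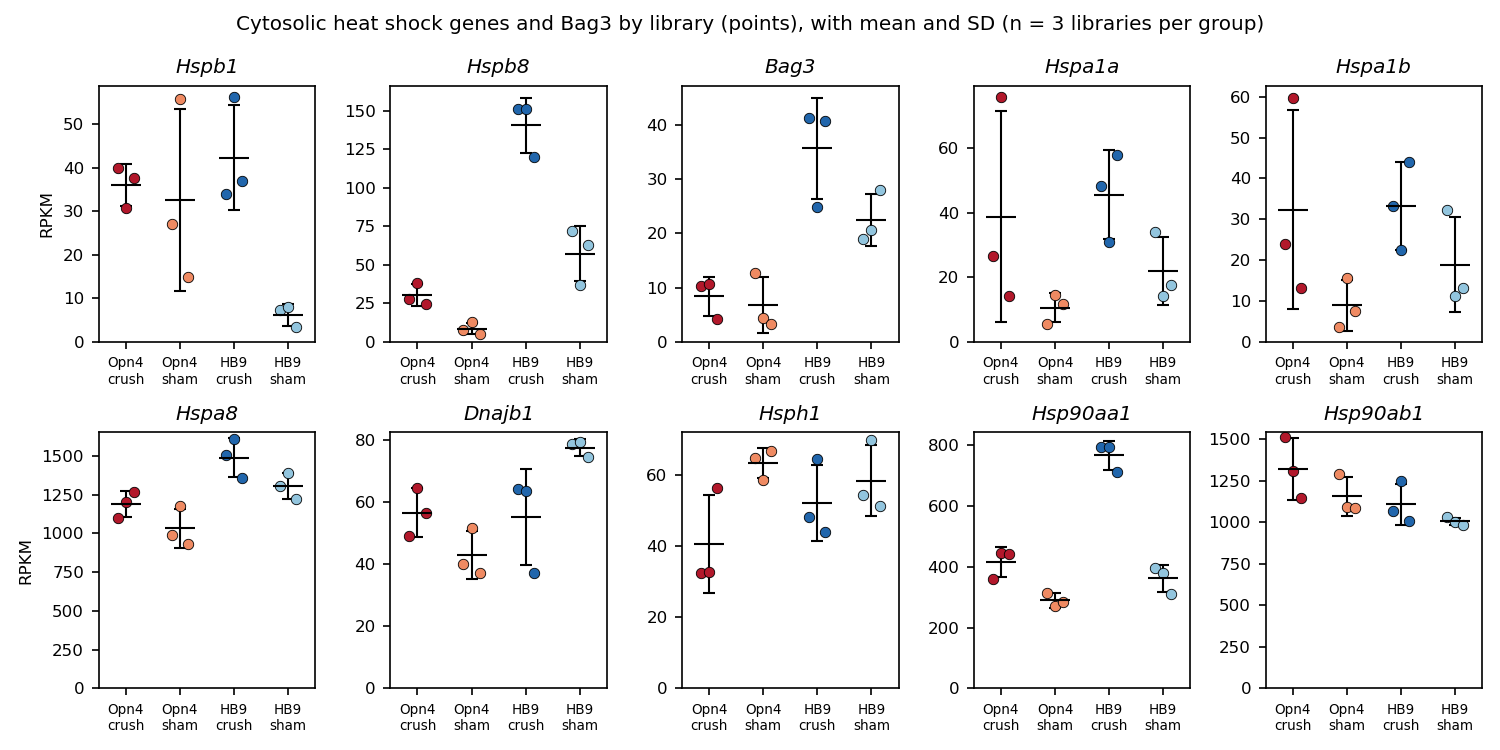
RPKM of the 10 genes in each of the 12 libraries (points), with the mean and SD of the 3 libraries of a group (bars), for Opn4 crush, Opn4 sham, HB9 crush and HB9 sham; each panel has its own scale starting at 0. Hspb1 lies lowest in the 3 HB9 sham libraries, Bag3 lies higher in every HB9 than in every Opn4 library, Hspb8 does so among libraries of the same surgery, and Hsp90aa1 lies highest in the 3 HB9 crush libraries.

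Among the small heat shock genes and Bag3, Hspb1 rose in HB9 cells after crush, Hspb8 rose in both classes, and Bag3 did not pass the test for crush in either. Their promoters, printed here because the small heat shock proteins bind BAG3 and these genes differ between the groups, all hold a 2-unit heat shock element. The RefSeq sequences (GRCm38.p6) run from 250 bases before to 50 bases after the annotated start and are given 5′ to 3′ on the strand of the gene. Hspb1 is from chr5:135887669-135887968 on the plus strand, Hspb8 from chr5:116422815-116423114 on the minus strand and Bag3 from chr7:128523333-128523632 on the plus strand. Capitals mark matches to GAANNTTC, TTCNNGAA or the 3-unit forms GAANNTTCNNGAA and TTCNNGAANNTTC, searched on both strands with overlaps kept.
Hspb1: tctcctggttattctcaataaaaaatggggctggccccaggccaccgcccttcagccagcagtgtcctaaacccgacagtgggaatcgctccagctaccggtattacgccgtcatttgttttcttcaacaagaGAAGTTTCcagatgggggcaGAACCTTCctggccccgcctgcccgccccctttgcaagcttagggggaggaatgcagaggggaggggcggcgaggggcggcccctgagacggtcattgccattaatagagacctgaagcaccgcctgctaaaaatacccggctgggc
Hspb8: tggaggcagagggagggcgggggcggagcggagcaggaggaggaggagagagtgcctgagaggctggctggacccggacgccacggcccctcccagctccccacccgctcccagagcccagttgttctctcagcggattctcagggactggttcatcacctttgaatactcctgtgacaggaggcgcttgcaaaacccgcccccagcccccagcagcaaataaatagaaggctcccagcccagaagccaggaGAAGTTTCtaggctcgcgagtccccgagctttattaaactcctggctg
Bag3: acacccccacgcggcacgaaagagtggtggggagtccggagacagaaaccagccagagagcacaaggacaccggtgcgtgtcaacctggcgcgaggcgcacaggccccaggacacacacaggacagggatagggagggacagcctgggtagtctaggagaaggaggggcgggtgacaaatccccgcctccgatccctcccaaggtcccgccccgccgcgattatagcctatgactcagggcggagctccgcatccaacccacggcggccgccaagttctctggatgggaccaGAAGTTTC
The match GAAGTTTC stands 117 to 110 bases upstream of the start in Hspb1, 3 to 10 bases downstream in Hspb8 and 43 to 50 bases downstream in Bag3. Hspb1 holds another, GAACCTTC, at 97 to 90 bases upstream. Among 32851 mouse promoters of the same length, 15.1% hold one of the 2-unit forms and 0.603% hold a 3-unit form. A match describes the letters alone.

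Hspb1 encodes HSP27 (HSP25 in mouse), which binds unfolded proteins and actin and has been linked to survival of injured neurons. It lies on chromosome 5 at 135887919 to 135889563 (mm10; ENSMUSG00000004951). In Opn4 crush libraries it stood at 40, 30.7 and 37.7 RPKM, against 27, 55.9 and 15 RPKM in Opn4 sham libraries. In HB9 crush libraries it stood at 34, 56.2 and 36.9 RPKM, against 7.22, 8.11 and 3.32 RPKM in HB9 sham libraries. The HB9 crush libraries all lay above the HB9 sham libraries, whereas the Opn4 sham libraries spanned the range of the Opn4 crush libraries. The change in HB9 cells was 2.62 ± 0.43 on the log2(RPKM + 1) scale (limma estimate ± SE, n = 3 libraries per group, adjusted p = 0.00266), a 6.16-fold higher value. In Opn4 cells it was 0.33 ± 0.43 (adjusted p = 0.775), and without Opn4 sham replicate 3 it was -0.11. The difference between the 2 crush changes, Opn4 minus HB9, was -2.30 ± 0.61 and did not pass adjustment over all genes (limma, unadjusted p = 0.00255, adjusted p = 0.121). After sham surgery Hspb1 was higher in Opn4 than in HB9 cells by 2.10 ± 0.43 (adjusted p = 0.00689), and after crush the class difference was -0.20 ± 0.43 (adjusted p = 0.819). With the mean of the rod markers as a covariate (the rod covariate), the sham class difference was 1.49 (adjusted p = 0.202), so that call was lost. It was also lost with the 2 sham groups fitted alone (adjusted p = 0.0546), with voom on recovered reads (0.0657) and with the mean of Muller glia and astrocyte markers as a covariate, added after seeing the data (the glial covariate, 0.0624).

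Hspb8 encodes HSP22, the small heat shock protein that binds BAG3 directly. It lies on chromosome 5 at 116408491 to 116422864 (ENSMUSG00000041548). Its values were 27.6, 38.4 and 24.9 RPKM in Opn4 crush libraries and 7.99, 12.6 and 5.22 RPKM in Opn4 sham libraries. In HB9 cells they were 151, 151 and 120 RPKM after crush and 71.9, 37.2 and 63 RPKM after sham surgery. Crush and sham libraries did not overlap in either class, and every Opn4 library lay below every HB9 library of the same surgery. Crush raised Hspb8 by 1.75 ± 0.33 in Opn4 cells (adjusted p = 0.022) and by 1.32 ± 0.33 in HB9 cells (adjusted p = 0.0287). The 2 changes differed by 0.43 ± 0.46 (adjusted p = 0.766). Both crush calls were lost without some single libraries, while the estimates stayed positive. Leaving out single HB9 libraries also cut the calls over all genes for crush in HB9 cells, from 1172 to between 645 and 777. In Opn4 cells the adjusted p was 0.0585 without crush replicate 2, 0.0546 without sham replicate 1 and 0.0675 without sham replicate 3, with estimates of 1.57, 1.74 and 1.48. Leaving out both libraries that stood apart gave 1.80 with an adjusted p of 0.073, and the call was also lost with no filter (0.0521), voom on recovered reads (0.134), library weights (0.0901) and the 2 groups alone (0.287). In HB9 cells the adjusted p was 0.107, 0.0971 and 0.064 without crush replicates 1, 2 and 3, and 0.135 and 0.0661 without sham replicates 2 and 3, with estimates between 1.04 and 1.43. That call was also lost with no filter (0.0573), the rod covariate (1.16, adjusted p = 0.0819) and the glial covariate (1.33, adjusted p = 0.147). The class difference was larger than either crush change. Opn4 minus HB9 was -2.20 ± 0.33 after crush (adjusted p = 0.000847) and -2.62 ± 0.33 after sham surgery (adjusted p = 0.000202), and both calls held in each alternative and with each library left out.

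Bag3 lies on chromosome 7 at 128523583 to 128546977 (ENSMUSG00000030847). It was read at 10.3, 10.6 and 4.2 RPKM in Opn4 crush libraries and at 12.7, 4.34 and 3.27 RPKM in Opn4 sham libraries. In HB9 cells it was at 41.3, 24.9 and 40.8 RPKM after crush and at 19, 20.6 and 27.9 RPKM after sham surgery. The crush and sham libraries overlapped in both classes, and every Opn4 library lay below every HB9 library. The crush change was 0.38 ± 0.47 in Opn4 cells (adjusted p = 0.758) and 0.62 ± 0.47 in HB9 cells (adjusted p = 0.553). Bag3 was lower in Opn4 than in HB9 cells, with a difference of -2.02 ± 0.47 after crush (adjusted p = 0.0134) and -1.77 ± 0.47 after sham surgery (adjusted p = 0.0265). The crush-group call was lost without HB9 crush replicate 1 (-1.90, adjusted p = 0.0603) or replicate 3 (-1.91, adjusted p = 0.0578). The sham-group call was lost without any of 5 of the 6 sham libraries, all but Opn4 sham replicate 1, with estimates of -1.88 to -1.44 and an adjusted p of up to 0.103. It was also lost with no filter (adjusted p = 0.055), voom on recovered reads (0.0574), the 2 sham groups alone (0.0677), the rod covariate (0.0548) and the glial covariate (0.0593). Without both libraries that stood apart, the class differences were -2.20 after crush and -2.28 after sham surgery, and both passed the test. Bag1, a related nucleotide exchange factor tied to the proteasome, did not pass in any of these comparisons. Bag3 amounted to 4.73%, 3.1% and 1.95% of Bag1 in Opn4 crush libraries and 4.46%, 1.52% and 1.12% in Opn4 sham libraries. It amounted to 19.1%, 9% and 21.4% in HB9 crush libraries and 9.85%, 7.07% and 10.9% in HB9 sham libraries. The ratio was lower in every Opn4 library than in any HB9 library.

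The HSP70 genes divided into low, variable inducible copies and an abundant constitutive one. Hspa1a and Hspa1b, the stress-inducible cytosolic HSP70 genes, lie side by side on chromosome 17 (34969199 to 34972154 and 34956436 to 34959238). Their promoters hold 296 identical bases of 300, and each has a 2-unit element, GAAGATTC, 104 to 97 bases upstream of the start. Hspa1b is shown for the pair, from chr17:34959189-34959488 on the minus strand, next to Hsph1, from chr5:149636287-149636586 on the minus strand, which is the only one of the 7 matched genes with a 3-unit element (TTCTGGAAAGTTC, 37 to 49 bases downstream of the start).
Hspa1b: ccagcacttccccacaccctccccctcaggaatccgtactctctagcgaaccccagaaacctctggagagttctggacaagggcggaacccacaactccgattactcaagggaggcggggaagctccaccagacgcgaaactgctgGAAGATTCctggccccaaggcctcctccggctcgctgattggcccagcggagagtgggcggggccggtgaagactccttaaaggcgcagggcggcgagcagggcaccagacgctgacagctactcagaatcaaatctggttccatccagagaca
Hsph1: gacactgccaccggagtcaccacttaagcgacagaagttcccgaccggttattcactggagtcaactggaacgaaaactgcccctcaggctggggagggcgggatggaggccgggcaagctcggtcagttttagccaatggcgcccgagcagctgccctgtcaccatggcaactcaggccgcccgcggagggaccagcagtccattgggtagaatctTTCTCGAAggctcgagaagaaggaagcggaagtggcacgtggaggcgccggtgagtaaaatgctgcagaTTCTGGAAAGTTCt
Of the 7 genes with a promoter in the RefSeq table, 6 hold at least a 2-unit element in this window and Dnajb1 holds none. Counted by gene, 17% of 27025 mouse genes hold one of the 2-unit forms. From the other listed start of Hsph1, its 3-unit element lies 16 to 28 bases downstream. Hspa8, Hsp90aa1 and Hsp90ab1 were not in that table.

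Hspa1a stood at 26.6, 75.7 and 14.1 RPKM in Opn4 crush libraries and at 5.6, 14.4 and 11.8 RPKM in Opn4 sham libraries. In HB9 libraries it stood at 48.3, 30.8 and 57.7 RPKM after crush and at 34, 14.2 and 17.5 RPKM after sham surgery. Crush replicate 2 was the highest Opn4 library, replicate 3 lay inside the sham range, and the HB9 groups overlapped as well. Hspa1b followed the same order and equalled 63.4% to 109% of Hspa1a in each library. Because reads of the copies may be split between them, their summed RPKM was also tested. The sum was 50.5, 136 and 27.3 RPKM in Opn4 crush libraries, 9.2, 30 and 19.3 in Opn4 sham libraries, 81.5, 53.3 and 102 in HB9 crush libraries and 66.2, 25.4 and 30.6 in HB9 sham libraries. The change in the sum was 1.65 ± 0.56 in Opn4 cells (adjusted p = 0.198) and 1.01 ± 0.56 in HB9 cells (adjusted p = 0.374), and neither passed. The SD of Hspa1a among Opn4 crush libraries was 1.19 on the log2 scale, against a median SD of 0.51 over all tested genes in that group.

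Hspa8 encodes HSC70, the constitutive HSP70 that serves clathrin uncoating, synaptic folding and chaperone-mediated autophagy. It averaged 1188 ± 85.9 RPKM in Opn4 crush and 1032 ± 127 RPKM in Opn4 sham libraries, and 1489 ± 125 RPKM in HB9 crush and 1305 ± 83.2 RPKM in HB9 sham libraries (SD, n = 3 each). The crush changes were 0.21 ± 0.12 in Opn4 and 0.19 ± 0.12 in HB9 cells (adjusted p = 0.471 and 0.474). Every Opn4 library lay below every HB9 library of the same surgery, but the class differences of -0.32 ± 0.12 after crush and -0.34 ± 0.12 after sham surgery did not pass (limma adjusted p = 0.107 and 0.0931). With voom on recovered reads both passed (adjusted p = 0.0445 and 0.0371). Inducible HSP70 amounted to 4.61%, 11.3% and 2.16% of Hspa8 in Opn4 crush libraries and 0.927%, 2.56% and 2.07% in Opn4 sham libraries. The share was 5.42%, 3.32% and 7.5% in HB9 crush libraries and 5.07%, 1.83% and 2.51% in HB9 sham libraries, so the groups overlapped in both classes.

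The HSP70 partners did not pass the test for crush, and each gave a negative estimate in at least 1 class. Dnajb1 encodes a J-domain protein (HSP40) that hands clients to HSP70 and stimulates its ATPase. It stood at 49, 64.7 and 56.4 RPKM in Opn4 crush libraries, at 40, 51.8 and 37.3 in Opn4 sham libraries, at 64.4, 63.8 and 37.3 in HB9 crush libraries and at 78.9, 79.4 and 74.6 in HB9 sham libraries. The 3 HB9 crush libraries all lay below the HB9 sham libraries, which were close to each other. The crush change was 0.40 ± 0.24 in Opn4 cells (adjusted p = 0.484) and -0.53 ± 0.24 in HB9 cells (adjusted p = 0.253), and the difference between them was 0.92 ± 0.34 (adjusted p = 0.267). After sham surgery Dnajb1 was lower in Opn4 than in HB9 cells (-0.85 ± 0.24, adjusted p = 0.0349). That call was lost without Opn4 sham replicate 1 (-0.81, adjusted p = 0.0847) or 3 (-0.76, adjusted p = 0.113), and without HB9 sham replicate 1, 2 or 3 (-0.84, -0.83 and -0.88, adjusted p of 0.0953, 0.106 and 0.0824). Without both libraries that stood apart it was -0.81 (adjusted p = 0.0756). The call was also lost with the rod covariate (-0.92, adjusted p = 0.186) and the glial covariate (-0.88, adjusted p = 0.0999). Hsph1 encodes HSP110, a nucleotide exchange factor that also takes part in disaggregation. It stood at 32.5, 32.7 and 56.3 RPKM in Opn4 crush libraries and at 64.7, 58.6 and 66.6 RPKM in Opn4 sham libraries, without overlap, with a change of -0.68 ± 0.25 (adjusted p = 0.234). In HB9 cells it averaged 52.1 ± 10.7 RPKM after crush and 58.3 ± 9.95 RPKM after sham surgery (SD, n = 3 each), and the groups overlapped.

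Hsp90aa1 rose after crush in HB9 cells under every alternative run. It encodes the inducible cytosolic HSP90 alpha and lies on chromosome 12 at 110690605 to 110702728 (ENSMUSG00000021270). Its values were 360, 447 and 443 RPKM in Opn4 crush libraries and 315, 270 and 283 RPKM in Opn4 sham libraries. In HB9 cells they were 794, 796 and 712 RPKM after crush and 395, 381 and 312 RPKM after sham surgery. Crush libraries lay above sham libraries in both classes. Hsp90aa1 rose by 1.08 ± 0.14 in HB9 cells (adjusted p = 0.000471), a 2.12-fold higher value, and this call also held without each library in turn, with adjusted p-values of up to 0.0106. In Opn4 cells the change was 0.52 ± 0.14 (adjusted p = 0.101). The difference between the crush changes, -0.56 ± 0.20, did not pass (adjusted p = 0.244). After crush Hsp90aa1 was lower in Opn4 than in HB9 cells (-0.88 ± 0.14, adjusted p = 0.0013), a call that held in all alternatives run, while after sham surgery the class difference was -0.32 ± 0.14 (adjusted p = 0.175).

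Hsp90ab1, the constitutive HSP90 beta, averaged 1322 ± 186 RPKM in Opn4 crush, 1157 ± 116 in Opn4 sham, 1110 ± 123 in HB9 crush and 1005 ± 23.6 in HB9 sham libraries (SD, n = 3 each), and did not pass in any comparison. Within a library, Hsp90aa1 amounted to 23.7%, 34.2% and 38.8% of Hsp90ab1 in Opn4 crush libraries and 24.4%, 24.7% and 26% in Opn4 sham libraries. In HB9 libraries it amounted to 74.2%, 63.8% and 70.4% after crush and 38.3%, 37.9% and 31.8% after sham surgery. The HB9 crush libraries stood above all 9 other libraries. The log2 ratio was 0.95 higher in HB9 crush than in HB9 sham libraries (exact permutation test, two-sided, p = 0.1, adjusted p = 0.24 over 12 ratio comparisons). An exact test of 3 libraries against 3 cannot give a p below 0.1, and the class differences of this ratio (-1.13 after crush and -0.52 after sham surgery) and of Bag3 over Bag1 (-2.19 and -2.01) reached the same p.

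**Figure D2:**
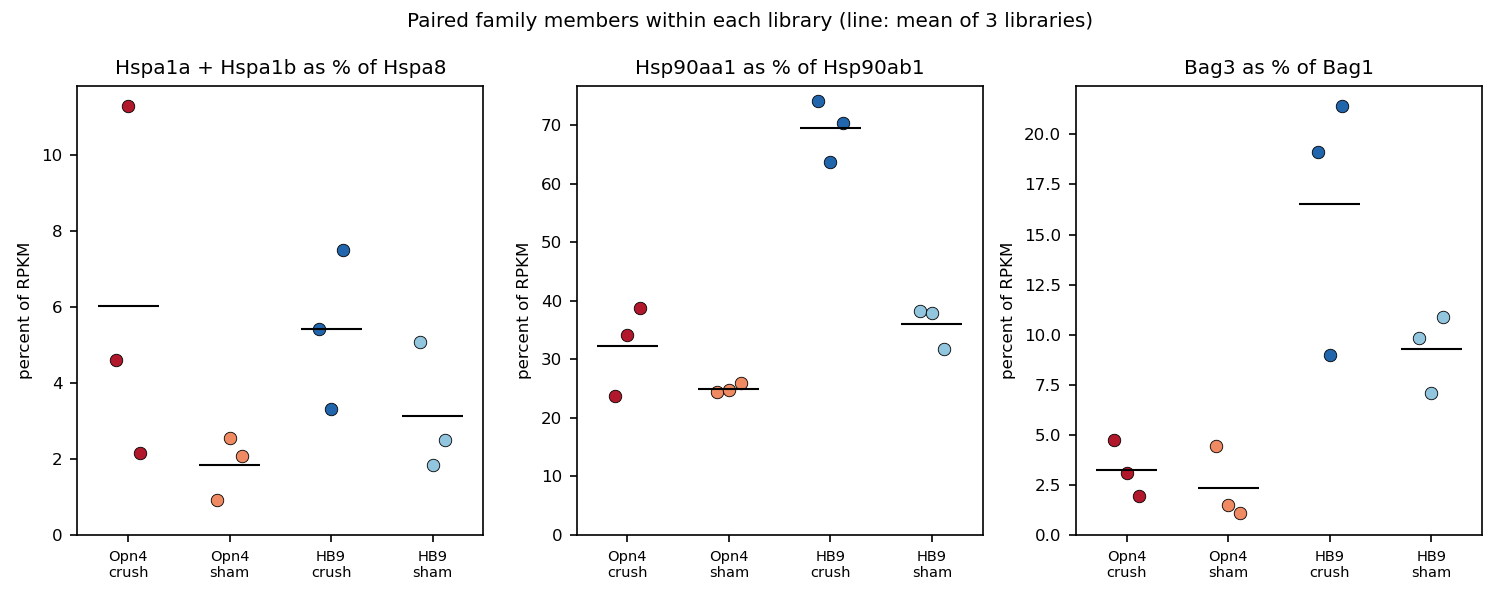
Hspa1a plus Hspa1b as a percentage of Hspa8, Hsp90aa1 as a percentage of Hsp90ab1 and Bag3 as a percentage of Bag1 in each of the 12 libraries (points; line, mean of 3), by group. Hsp90aa1 lies between 63.8% and 74.2% of Hsp90ab1 in HB9 crush libraries and at 38.8% or less in all others.

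Of the 10 genes, 1 rose after crush in Opn4 cells (Hspb8) and none fell, where 1.11% of all tested genes changed, 0.69% upward and 0.421% downward. In HB9 cells 3 of 10 rose (Hspb1, Hspb8 and Hsp90aa1) and none fell, where 6.42% of all tested genes changed, 3.84% upward and 2.57% downward. The median log2 change of the 10 genes was 0.39 in Opn4 cells, against -0.02 over all tested genes, and 0.75 in HB9 cells, against 0.11. No gene of the 10 passed the test of the difference between the crush changes, which 0.816% of all tested genes passed; at an unadjusted p under 0.05 there were 3 of 10 in limma on log2 RPKM (2351 of all tested genes), and voom on recovered reads also called none. Opn4 crush libraries lay wholly above sham libraries for 2 of the 10 genes (7.38% of all genes) and wholly below for 1 (7.33%). HB9 crush libraries lay wholly above for 3 (19%) and wholly below for 1 (12.6%). Scaling the libraries by the median of gene ratios in place of the deposited totals changed the balance of all calls in HB9 cells to 613 higher and 669 lower, against 702 and 470 as deposited. In the difference between the crush changes it gave 76 higher and 86 lower, against 53 and 96. This scaling moved the median change of all genes by -0.09 in HB9 cells and 0.10 in the difference, and it left the same counts of the 10 genes called, with Hspb1 at 2.52, Hspb8 at 1.21 and Hsp90aa1 at 0.97 in HB9 cells.

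**Figure D3:**
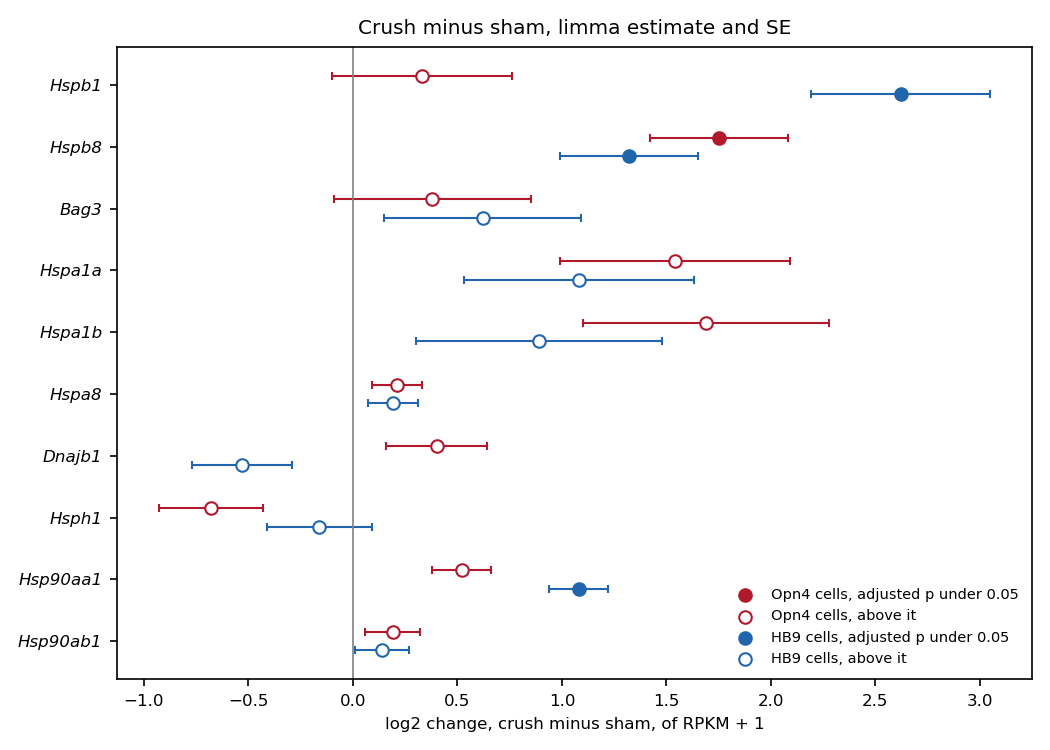
Crush minus sham change in log2(RPKM + 1) of the 10 genes in Opn4 cells and HB9 cells, as limma estimate and SE (n = 3 libraries per group); filled points have an adjusted p under 0.05. Hspb8 is filled for both classes, and Hspb1 and Hsp90aa1 for HB9 cells alone, where a filled and an open point are not by themselves a tested difference between classes.

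Between the classes, 3 of the 10 genes were lower in Opn4 than in HB9 cells after crush (Hspb8, Bag3 and Hsp90aa1) and none was higher, where 12.7% of all tested genes differed, 7.6% being lower and 5.12% higher. After sham surgery 3 were lower (Hspb8, Bag3 and Dnajb1) and 1 was higher (Hspb1), where 11.8% of all tested genes differed, 5.93% being lower and 5.82% higher. Opn4 libraries lay wholly below HB9 libraries for 4 of the 10 genes after crush (17.6% of all genes) and wholly above for none (12.8%). After sham surgery they lay wholly below for 4 (15.2%) and wholly above for 2 (15.5%). The median class difference of the 10 genes was -0.35 after crush and -0.60 after sham surgery, against -0.12 and 0.01 over all tested genes.

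**Figure D4:**
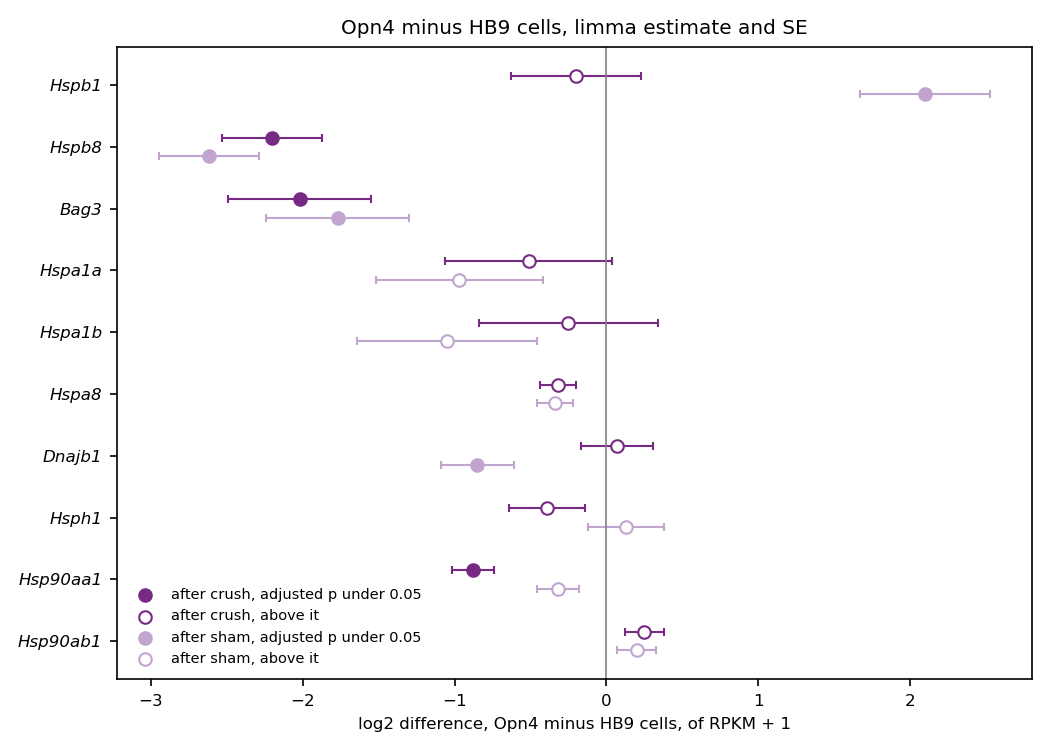
Opn4 minus HB9 difference in log2(RPKM + 1) of the 10 genes after crush and after sham surgery, as limma estimate and SE (n = 3 libraries per group); filled points have an adjusted p under 0.05. Hspb8 and Bag3 lie to the left under both surgeries, and Hspb1 lies at 2.10 after sham surgery and at -0.20 after crush.

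Markers of cell class and of other retinal cells also moved with crush in HB9 cells, where 3.84% of all tested genes rose and 2.57% fell. Of the HB9 class markers, Mnx1, the gene called HB9, fell by 3.30 (adjusted p = 0.000471), at 2.96, 1.13 and 3.06 RPKM in HB9 crush libraries and 20.9, 41.7 and 34 RPKM in HB9 sham libraries, and Cartpt did not pass. Of the melanopsin-class markers, Eomes rose by 2.32 (adjusted p = 0.000837), at 6.88, 7.9 and 9.45 RPKM in HB9 crush libraries and 1.68, 1.19 and 0 RPKM in HB9 sham libraries. Opn4 itself did not pass, at 19.6, 24.3 and 1.82 RPKM in HB9 crush and 20.2, 4.88 and 0.158 RPKM in HB9 sham libraries. Of 6 amacrine cell markers, Slc6a9 alone passed, with a rise of 3.60 (adjusted p = 0.0123). It stood at 42.8, 35.7 and 39.9 RPKM in HB9 crush libraries and 5.57, 3.59 and 0.215 RPKM in HB9 sham libraries. Pax6 lay lower in every HB9 crush library (17.5, 43.3 and 22.3 RPKM) than in any HB9 sham library (65.9, 59.4 and 67.6 RPKM), without passing. No tested rod, cone, bipolar, microglia or vascular marker passed for crush in either class. Of 10 Muller glia and astrocyte markers, 6 were tested; in HB9 cells Clu and Vim rose after crush (2.56 and 3.32) and Dkk3 fell by 1.53, while in Opn4 cells none passed. Their summed level was 806 to 1033 RPKM in Opn4 crush, 533 to 626 in Opn4 sham, 796 to 2197 in HB9 crush and 416 to 421 in HB9 sham libraries. Most of the HB9 crush sums of 1740, 2197 and 796 RPKM was Clu alone, at 1616, 1987 and 705 RPKM. In HB9 sham libraries most was Clu (195, 248 and 227 RPKM) and Dkk3 (204, 153 and 176 RPKM). The sum therefore mainly follows these genes. Among the glial markers too low to be tested, Aqp4 was at 0 in all 6 HB9 libraries and Gfap was at 0 in all but HB9 crush replicate 2 (0.294 RPKM). In HB9 libraries Slc1a3 was at most 0.00885 RPKM and Kcnj10 at most 0.0247 RPKM. Apoe stood at 4.5, 6.18 and 3.51 RPKM in HB9 crush libraries and 2.27, 3.05 and 0 RPKM in HB9 sham libraries, without passing. Glul averaged 17 RPKM in HB9 crush and 11.4 RPKM in HB9 sham libraries, also without passing. Rlbp1 was at 14.7, 18.2 and 31.5 RPKM in HB9 crush libraries and at 2.63, 2.3 and 3.72 RPKM in HB9 sham libraries. With the glial covariate, the HB9 crush change was 2.11 for Hspb1 (adjusted p = 0.0725) and 1.33 for Hspb8 (adjusted p = 0.147), and both calls were lost. Without it the estimates were 2.62 and 1.32. This covariate includes Clu and Vim, which rose with crush in HB9 cells, so it overlaps the crush comparison itself. Calls over all genes fell from 1172 to 602 with it. A call lost with it therefore cannot separate glial RNA from crush. Ganglion cell markers summed to 4164 to 4791 RPKM in Opn4 crush, 5047 to 5455 in Opn4 sham, 5109 to 5796 in HB9 crush and 8483 to 9524 in HB9 sham libraries, and of 9 markers Rbpms, Nefm and Sncg fell in HB9 cells. In Opn4 cells Rbpms alone fell, by 0.78 (adjusted p = 0.0409), where 0.421% of all tested genes fell. Opn4 crush replicate 1 held Slc1a3 at 14.7 and Rlbp1 at 86.6 RPKM, the highest of all libraries, and its Hspb1 value of 40 RPKM was the highest of the 3 Opn4 crush values. Opn4 crush replicate 3 held Hspb1 at 37.7 RPKM with Rlbp1 at 3.35 RPKM. Opn4 sham replicate 2 held Hspb1 at 55.9 RPKM, with Slc1a3 at 0.031 and Rlbp1 at 14 RPKM. In HB9 crush replicate 2 Hspb1 was at 56.2 RPKM, with Slc1a3 at 0.00831 and Rlbp1 at 18.2 RPKM. In HB9 cells both Hspb1 and Rlbp1 were higher in every crush library than in any sham library. These single libraries were picked after their values were seen, and a relation of Hspb1 to the glial markers was not tested.

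Dissociation with papain at 37 °C can itself induce immediate early and heat shock genes, and all groups went through it. Of 13 tested immediate early genes, 3 rose after crush in Opn4 cells (Jun, Egr1 and Dusp1) and none fell, with a median change of 1.28, where 0.69% of all tested genes rose and 0.421% fell. In HB9 cells 4 rose (Jun, Btg2, Dusp1 and Egr1) and Ier3 fell, with a median of 0.48, where 3.84% of all tested genes rose and 2.57% fell. In Opn4 cells Egr1 lost its call without crush replicate 2 (1.94, adjusted p = 0.0648) and without both libraries that stood apart (1.65, adjusted p = 0.0513), with no filter (0.0762), with library weights (0.079) and with the 2 groups alone (0.306). Dusp1 lost its call there with the 2 groups alone (0.149). In HB9 cells Btg2 lost its call with the glial covariate (adjusted p = 0.0859). Ier3 lost its call with the rod covariate (0.0509), the glial covariate (0.163) and without any of 5 of the 6 HB9 libraries, all but crush replicate 1 (adjusted p of 0.0617 to 0.092). The list summed to 1219 to 1565 RPKM in Opn4 crush, 371 to 906 in Opn4 sham, 735 to 822 in HB9 crush and 256 to 375 in HB9 sham libraries. Jun, an injury-induced transcription factor, stood at 223, 219 and 294 RPKM in Opn4 crush libraries, against 10.9, 11.3 and 11 RPKM in Opn4 sham libraries. The part of glial RNA and of dissociation in the changes of the heat shock genes was not tested further.

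In the wider chaperone network, 69 genes were tested in 9 lists of other chaperones, cochaperones and regulators. After crush 1 rose and none fell in Opn4 cells, with a median change of -0.15, where 1.11% of all tested genes changed. In HB9 cells 4 rose and 1 fell, with a median of 0.08, where 6.42% of all tested genes changed. Both counts were near the share over all genes. The single riser in Opn4 cells was Sqstm1, which encodes p62, the autophagy receptor that works with BAG3. It stood at 1189, 1175 and 1248 RPKM in Opn4 crush and 805, 644 and 796 RPKM in Opn4 sham libraries, and at 2196, 1984 and 2015 RPKM in HB9 crush and 669, 720 and 754 RPKM in HB9 sham libraries. Crush raised it by 0.69 ± 0.12 in Opn4 cells (adjusted p = 0.0125) and by 1.53 ± 0.12 in HB9 cells (adjusted p = 9.89e-06). The call in Opn4 cells was lost with the 2 groups alone (adjusted p = 0.212). In HB9 cells the mitochondrial HSP70 Hspa9 rose by 2.04 ± 0.18 (adjusted p = 3.4e-05), at 588, 421 and 522 RPKM after crush and 130, 112 and 126 RPKM after sham surgery. Its J-domain partner Dnaja3 rose by 1.15 ± 0.25 (adjusted p = 0.0147); the call was lost without HB9 crush replicate 1 or 2 or HB9 sham replicate 3 (adjusted p of 0.0545, 0.0627 and 0.0663) and with the glial covariate (0.0795). The HSP70 relative Hspa12a fell by 1.34 (adjusted p = 0.00399; -0.80 with the glial covariate, adjusted p = 0.103), at 99.2, 93.9 and 117 RPKM in HB9 crush and 227, 277 and 287 RPKM in HB9 sham libraries.

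Hspb7, a small heat shock gene known from heart and muscle, rose in HB9 cells at a low level (1.56 ± 0.38, adjusted p = 0.0271), at 2.62, 1.22 and 3.96 RPKM after crush and 0.434, 0.0733 and 0.0182 RPKM after sham surgery. This call was lost without HB9 crush replicate 1 or 3 or HB9 sham replicate 2 or 3 (adjusted p of 0.0833, 0.108, 0.0966 and 0.095), with the rod covariate (0.0717) and with the glial covariate (0.104). The estimate depends on the pseudocount, being 3.46 with 0.1 (adjusted p = 0.0509) and 0.54 with 5 (adjusted p = 0.0341), and was 4.53 with voom. Cryab, the alpha-B crystallin gene, was listed at 0 in all 6 HB9 libraries and at 41.4, 3.68 and 0 RPKM in Opn4 crush and 9.91, 0 and 3.18 RPKM in Opn4 sham libraries. Hsf1 itself did not pass in either class (-0.49 ± 0.27 in Opn4 and 0.29 ± 0.27 in HB9 cells). The HSP70-HSP90 adaptor Stip1 stood at -0.26 ± 0.13 in Opn4 and -0.43 ± 0.13 in HB9 cells (adjusted p = 0.394 and 0.0721); in HB9 cells it passed with median-of-ratios scaling (-0.54, adjusted p = 0.0162) and with voom (-0.44, adjusted p = 0.0252). The HSP110 gene Hspa4 stood at -1.19 ± 0.33 in Opn4 cells (adjusted p = 0.118) and the mitochondrial chaperonin Hspd1 at 0.64 ± 0.22 in HB9 cells (adjusted p = 0.119). Hspa4 passed without Opn4 crush replicate 3 (-1.63, adjusted p = 0.0148). Hspd1 passed with library weights (0.60, adjusted p = 0.0167) and with the 2 groups alone (0.64, adjusted p = 0.0356). None of the 8 cytosolic chaperonin genes passed in either class, with medians of -0.06 in Opn4 and 0.38 in HB9 cells.

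**Figure D5:**
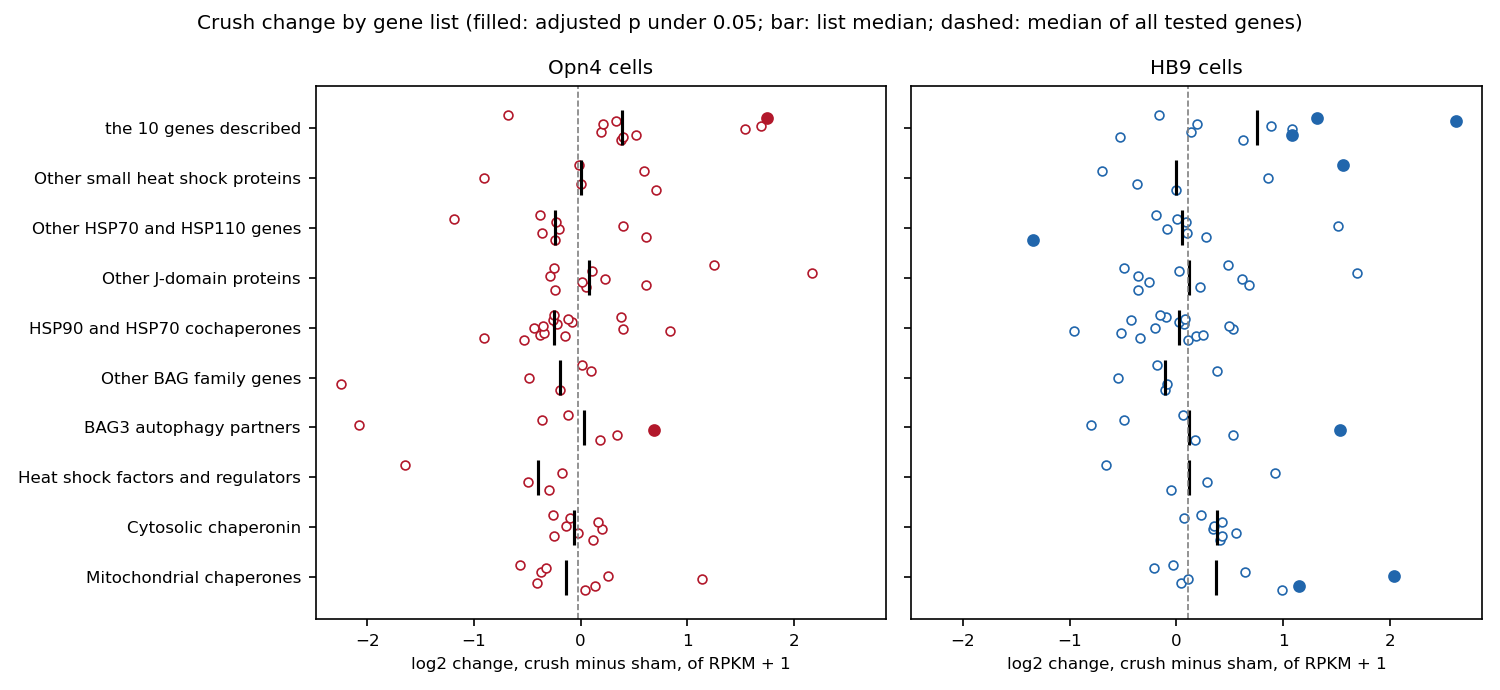
Crush minus sham change in log2(RPKM + 1) of each tested gene (points) in Opn4 cells and HB9 cells, for the 10 genes described and for lists of other chaperones and regulators; filled points have an adjusted p under 0.05, short bars are list medians and the dashed line is the median of all tested genes. Few points outside the 10 genes are filled: Sqstm1 in both classes, and Hspa9, Dnaja3, Hspa12a and Hspb7 in HB9 cells.

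Genes most alike in pattern were sought by Pearson's r of log2(RPKM + 1) over the 12 libraries, which share groups and scaling totals. For Hspb1 the closest were its copies Hsp25-ps1 (r = 0.998) and Gm9817 (0.993), followed by the cell cycle inhibitor Cdkn1a (0.934), whose means were 185, 41.7, 114 and 0.64 RPKM in Opn4 crush, Opn4 sham, HB9 crush and HB9 sham libraries. For Hspa1b they were Hspa1a (0.979), the overlapping antisense gene Gm20481 (0.968) and Slc35c2 (0.888). For Bag3 they were Rora (0.971), Zdhhc6 (0.959) and Ogdhl (0.957), and for Hspa8 they were Rrp7a (0.938), Tmed10 (0.928) and Gm3436 (0.927).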

How the data were processed

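RNA of 12 pools of 30 picked cells was amplified and sequenced. The deposited table, made by the authors, holds 1 RPKM per gene and library. Per the submitters' processing notes, edgeR 3.14.0, Bowtie and TopHat2 2.0.11 were used with build mm10; which step used each, the counting of reads and the annotation are not given in the sources used here. Whole reads recovered from the RPKM summed to 227% to 244% of the scaling totals, so either some reads entered several genes or the totals cover other reads; depth intervals would cover counting error only and are not given.

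Values were tested as log2(RPKM + 1), a scale that understates changes of low genes, with limma 3.58.1 in R 4.3.3 (4 group means over 12 libraries, trended eBayes) for the 18269 genes that reached 1 RPKM in 3 or more libraries. Tests were two-sided, with Benjamini-Hochberg adjustment over all genes of a comparison and a threshold of 0.05. The script recovered known changes when tested on simulated data. The 10 genes and all lists were chosen with earlier results of these data known. All 10 genes are described; of the lists, genes called in a crush comparison or in the difference between the crush changes (up to 6 per list and comparison) and Hsf1, Bag1, Cryab, Stip1, Hspd1 and Hspa4 are named, with the 3 genes most alike in pattern to each of Hspb1, Hspa1b, Hspa8 and Bag3. Marker and copy genes were named after their values were seen. Copies were found with blastn 2.17.0 in GENCODE transcripts of GRCm38, and promoters were RefSeq's. Alternatives were other pseudocounts, filters, scaling, weights, libraries, covariates, a replicate term and voom on recovered reads.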

Additional observations from a re-analysis of the deposited data

Results flagged for a closer look

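The crush change of Sqstm1 was smaller in Opn4 than in HB9 cells, by -0.84 ± 0.16 on the log2 scale (limma interaction contrast, adjusted p = 0.0359). This difference lost its call in 15 of the 23 alternatives run, with an adjusted p of up to 0.102. Hspa9 differed between the classes in the same direction, by -1.78 ± 0.26 (adjusted p = 0.00776): its crush change was 0.26 ± 0.18 in Opn4 cells and 2.04 ± 0.18 in HB9 cells. The Hspa9 call held in all 23 alternatives. Both genes are listed because they passed a test of the difference itself in the main fit, and the cause was not tested. They were 2 of the 69 genes of the wider chaperone network, where 0.816% of all tested genes passed.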

How the results depend on the processing

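Of 960 results of the 10 genes under alternatives, 896 kept their direction and their side of the threshold, 41 lost and 4 gained a call, and 19 changed sign. Of the 10 genes, 1 was called for crush in Opn4 cells and 0 with no filter, voom, library weights, the 2 groups alone or without the libraries that stood apart (0 to 1 with single libraries left out). For crush in HB9 cells the 3 calls became 1 with the glial covariate, added after seeing the data (2 to 3 with libraries left out). For class after sham surgery the 4 calls became 2 with the 2 groups alone and 1 with the rod or the glial covariate (2 to 4), and for class after crush the 3 calls became 4 with voom and 2 to 3 with libraries left out. Over all genes, the 203 calls for crush in Opn4 cells became 87 with library weights and 13 with the 2 groups alone (148 to 224 with libraries left out). The 1172 in HB9 cells became 3025, 1939 and, with the glial covariate, 602 (645 to 777). The 149 in the difference between the crush changes became 90 with a pseudocount of 0.1 (61 to 156). The 2148 for class after sham surgery became 809 with the rod and 1374 with the glial covariate (1348 to 1923), and the 2325 after crush became 971 with the rod covariate (1356 to 2201). Same-numbered samples showed little shared deviation over all genes (r of -0.0217 to 0.081). This cannot tell whether they shared animals, which the labels do not say. The replicate block gave 98 calls in the difference between the crush changes and a limma adjusted p of 0.0613 for Sqstm1 there. Signs changed for Hsp90ab1 (-0.12) and Bag1 (0.00) in HB9 crush and Cryab in Opn4 crush (-0.24) with the glial covariate, for Dnajb1 after crush between classes with library weights (-0.02), for Bag3 in the difference without the libraries that stood apart (0.08), and for Hspa4 in HB9 crush with median-of-ratios scaling (-0.10) and voom (-0.01). With single libraries left out, crush in Opn4 cells ranged from -0.11 to 0.80 for Hspb1 and -0.72 to 1.98 for Cryab, and crush in HB9 cells from -0.28 to 0.02 for Bag1 and -0.13 to 0.14 for Hspa4. The difference between the crush changes ranged from -0.17 to 1.00 for Hspa1a, -0.05 to 0.12 for Hspa8, -0.05 to 0.15 for Hsp90ab1 and -0.58 to 0.26 for Bag3. Class after crush ranged from -0.33 to 0.02 for Hspb1, -1.14 to 0.03 for Hspa1a, -0.81 to 0.23 for Hspa1b, -0.18 to 0.20 for Dnajb1 and -0.68 to 0.49 for the log2 ratio of inducible HSP70 to Hspa8. The cause was not tested for any of these.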
